A study of Mus musculus with 12 samples.

Results

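The choroid plexus is a sheet of secretory epithelium that hangs in the brain ventricles, and 31 genes that are normally read as markers of neurons, myelin, astrocytes or the pituitary gland were followed through RNA sequencing libraries of the lateral choroid plexus of the mouse. The 31 genes were taken from a fixed list by gene symbol, out of 35275 genes in the table. They are 14 markers of neurons, 8 of myelin and oligodendrocytes, 6 of astrocytes and 3 pituitary hormones. The 12 libraries form 4 groups of 3 from adult mice of the C57BL6 strain label: males with both copies of Abhd2 intact (wt, Abhd2+/+), males with both copies inactivated (hoz, Abhd2-/-), wt females and hoz females. All females were in proestrus and all animals were killed at about 10 in the morning, so stage of cycle and sex cannot be told apart. How the allele was made, the age beyond adult, and whether a library is the tissue of 1 animal were not stated in the labels, so p-values measure the spread between these libraries.

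A dissected choroid plexus is bordered by brain, and RNA from neurons and glia can be present in a bulk sample of it. Synaptic vesicle proteins (Snap25, Syt1, Syn1), neurofilaments and transmitter enzymes are hallmarks of neurons, Mbp, Mobp and Mag build or border the myelin sheath of oligodendrocytes, and Gfap and the glutamate transporters Slc1a2 and Slc1a3 mark astrocytes. Growth hormone (Gh), prolactin (Prl) and proopiomelanocortin (Pomc) are made mainly in separate cell types of the pituitary, and the choroid plexus is known as a tissue with very many prolactin receptors. In bulk RNA, fewer cells of a type and less RNA per cell cannot be told apart.

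The libraries held 5975707 to 47903184 reads assigned to genes, and the depth behind 1 read ranged from 0.0213 to 0.168 CPM (counts scaled to the TMM-adjusted library total). Abhd2 stood at 48.6 to 60.7 CPM in the 6 hoz libraries and at 1860.2 to 2431 CPM in the 6 wt libraries, so the libraries separated by their genotype labels. The tissue label held as well: the 15 markers of choroid plexus epithelium summed to 157386 to 178408 CPM in every library, whereas the 31 members together took 0.0366% to 0.0567% of the reads. As a group label, however, "brain and pituitary" is uneven. Some members varied many fold between libraries of 1 group, others hardly varied at all, and 1 of them, Cldn14, was read 2 times in all 12 libraries. A claudin with that number is not a known part of myelin. The myelin claudin is Cldn11, which was read at 2.26 to 5.40 CPM.

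The members differed by how much they varied from library to library. Dividing the highest library by the lowest, the ratio was 1.33 for the dendrite protein Map2, 1.36 for the glycolytic enzyme Aldoc, 1.44 for the endoplasmic reticulum protein Rtn1, 1.61 for the myelin enzyme Cnp and 1.74 for Mbp. It was 6.96 for Snap25 (95% counting interval 3.28 to 17.7), 6.79 for Gfap (5.11 to 9.15), 10.4 for Mobp (5.50 to 22.1), 10.4 for Slc17a7 and 14.5 for Camk2a. Intervals of this kind cover counting error only. Per kilobase of gene length, the steady members were also among the most abundant: the mean level was 30.03 CPM per kilobase for Rtn1, 18.1 for Mbp, 13.5 for Aldoc, 7.84 for Cnp and 5.40 for Map2, against 0.588 for Snap25, 0.851 for Camk2a and 0.660 for Slc1a2. Abundance and steadiness did not always go together: Nefh had 21.7 CPM per kilobase with a ratio of 5.94. Gh and Prl, each with libraries at 0 reads, had 4.03 and 3.89. In 16 of the 31 members the highest library was wt male 1. The low end was not resolved in the shallow libraries, where 3 reads of hoz female 3 equal 0.503 CPM.

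**Figure D1:**
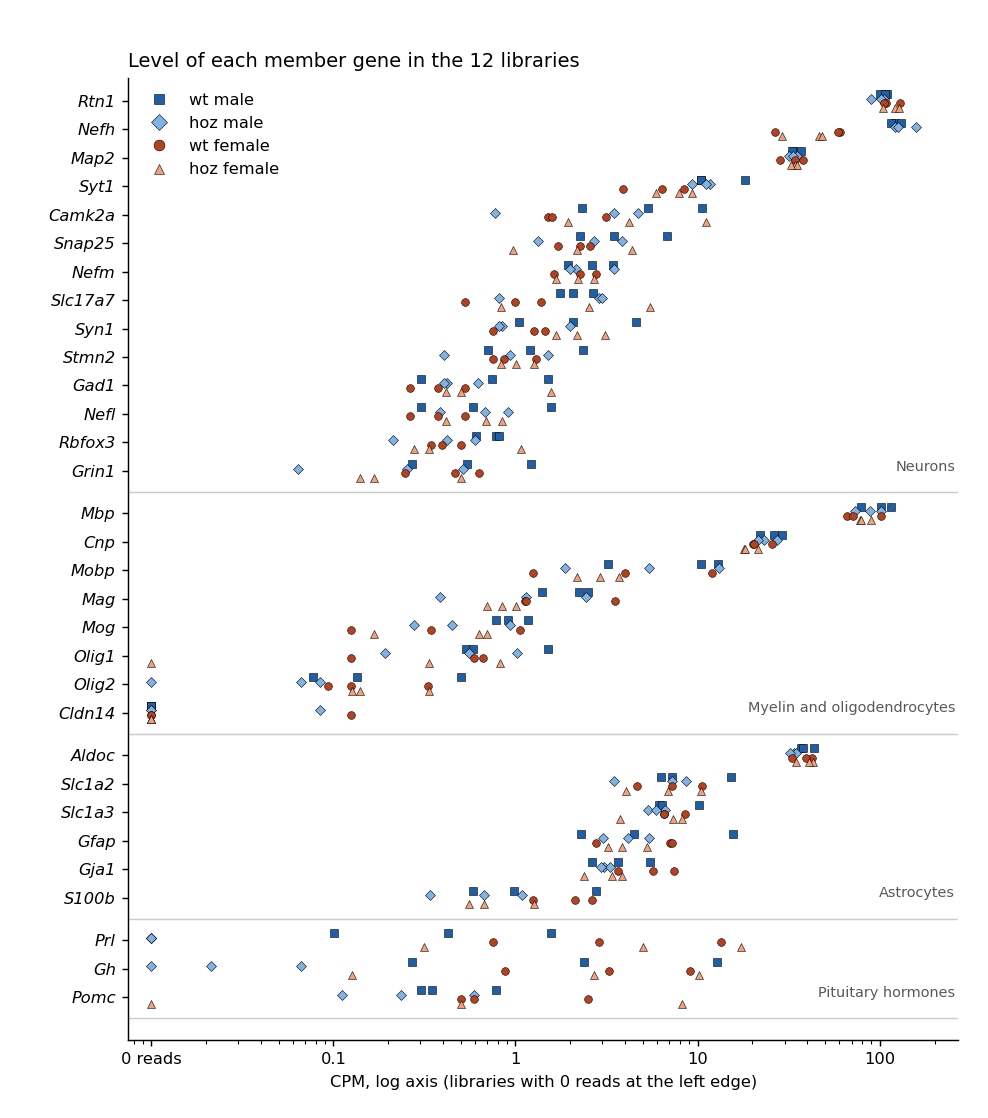
CPM of each of the 31 member genes (rows, by class and mean level) in the 12 libraries, on a log axis with libraries at 0 reads at the left edge; each symbol is 1 library, coloured by group. Rtn1, Map2, Mbp, Cnp and Aldoc form tight clusters, Nefh splits into males and females, and Gh and Prl spread from 0 to above 10 CPM.

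Of the 14 neuron genes, 6 were highest in wt male 1 and 4 in hoz female 1. Snap25, a SNARE protein that drives release of synaptic vesicles (ENSMUSG00000027273, chromosome 2, 136713453 to 136782428, plus strand, mm10), was at 6.79, 2.25 and 3.46 CPM in wt males, 2.71, 3.85 and 1.32 in the hoz males, 2.26, 2.58 and 1.71 in the wt females, and 4.34, 0.974 and 2.18 in the hoz females. The 2 highest values were those of wt male 1 and hoz female 1, and all 4 groups overlapped. Camk2a, a kinase of excitatory synapses, stood at 10.6 CPM in wt male 1 and 11.1 CPM in hoz female 1, and at 0.767 to 5.33 CPM in the other 10 libraries. Gad1, which makes the inhibitory transmitter GABA, was at 1.50 and 1.57 CPM in those libraries and at 0.264 to 0.739 CPM elsewhere. Syn1, a phosphoprotein of synaptic vesicles, was likewise highest in wt male 1 (4.62 CPM) and hoz female 1 (3.08 CPM) and lowest in wt female 1 (0.752 CPM). It encloses Timp1 on the opposite strand. In all, 13 members overlap a gene on the opposite strand, and whether counting used strand was not stated in the labels.

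The promoter of Syn1 (GRCm38.p6, chrX:20920869-20921168, minus strand, from RefSeq, 250 bases before to 50 after the start) is shown because it held the left arm of the RE1 element, to which the repressor REST binds to keep neuronal genes silent outside neurons. Capitals mark the letters TTCAGCACC, searched on both strands, which start 232 bases before the start site.
Syn1: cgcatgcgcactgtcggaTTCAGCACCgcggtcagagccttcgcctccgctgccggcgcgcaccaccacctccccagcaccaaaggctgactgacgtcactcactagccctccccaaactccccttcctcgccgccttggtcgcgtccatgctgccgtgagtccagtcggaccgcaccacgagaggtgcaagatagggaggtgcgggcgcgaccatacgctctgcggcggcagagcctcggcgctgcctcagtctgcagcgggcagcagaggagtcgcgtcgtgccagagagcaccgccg
These letters were present in 0.371% of 32851 promoters of this length, and Syn1 was the only match among 30 promoters of the 22 members that the table holds. A match is a string of letters and not a measured site.

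The glutamate transporters differed between these libraries. The vesicular glutamate transporter Slc17a7, the form of cortex and hippocampus, had 48 reads in wt male 1 and 87 in hoz female 1, which is 2.67 and 5.48 CPM, with 0.529 to 2.98 CPM elsewhere. Slc17a6, the form that prevails in thalamus and brainstem, had 37 reads in wt male 1 and 1 in hoz female 1, and no more than 7 in any other library. So wt male 1 held 1.30 reads of Slc17a7 for each read of Slc17a6, and hoz female 1 held 87. Calb2, a calcium buffer of some thalamic neurons and of interneurons, was at 2.503 CPM in wt male 1, 0.378 CPM in hoz female 1 and 0 to 0.534 CPM elsewhere. Region lists were thin at this depth, and the list of cortex and hippocampus also held Slc17a6. The filter passed 5 of the 10 genes of that list and 6 of 9 of striatum in the table. It passed 4 of 8 of thalamus and habenula and 1 of 6 of inhibitory neurons. None of the region genes was called in a contrast. The most abundant of them were in part genes with other sites of expression, such as Ppp1r1b at 744 to 906 CPM, Rora at 58.1 to 74.0, Wfs1 at 49.9 to 60.4, Prkcd at 28.7 to 39.8 and Lef1 at 17.3 to 26.1 CPM. Rgs9 (4.57 to 7.89 CPM) and Tcf7l2 (8.64 to 12.7 CPM) varied less than Pde10a, a phosphodiesterase of striatal neurons, at 0.315 to 5.64 CPM.

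The other neuron members were low. Stmn2, a regulator of growing axons, ranged from 0.405 CPM in hoz male 3 to 2.34 CPM in wt male 1, and Rbfox3, the nuclear antigen NeuN, from 0.213 CPM in hoz male 3 to 1.07 CPM in hoz female 1. Grin1, the obligate subunit of NMDA receptors, had 103 reads in all and did not pass the filter. It was highest in wt male 1, with 22 reads, and had 1 read each in hoz female 2 and hoz female 3. Of a further list of 16 neuron genes, 13 were tested. Among them Vamp2, a SNARE protein of synaptic vesicles, was at 61.5 to 79.8 CPM, the glycolytic enzyme Eno2 at 33.6 to 54.1 CPM and the vesicle protein Syp at 4.01 to 9.23 CPM.

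Neurofilament heavy chain separated the sexes. Nefh (ENSMUSG00000020396, chromosome 11, 4938754 to 4948064, minus strand, overlapping no other gene) encodes the largest subunit of the intermediate filaments that set axon calibre. It was read at 121, 132 and 115 CPM in wt males and 121, 157 and 125 CPM in the hoz males, but at 60.4, 59.3 and 26.5 CPM in the wt females and 46.5, 29.2 and 47.99 CPM in the hoz females. Every female library lay below every male library. The means were 123 ± 8.18 and 134 ± 19.7 CPM in wt and hoz males and 48.7 ± 19.3 and 41.2 ± 10.4 CPM in wt and hoz females (SD, n = 3).

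In hoz mice Nefh was lower in females by the quasi-likelihood test of edgeR, adjusted by Benjamini-Hochberg over 13857 genes, with a log2 fold change of -1.70 (SE 0.315, adjusted p = 0.0270). It was the 1 member called of 28 tested, where 2.68% of all genes tested were called. In wt mice the log2 fold change was -1.39 (SE 0.302, adjusted p = 0.0548), and 0 members were called, where 2.63% of all genes were. At an unadjusted p under 0.05 there were 3 members in wt, beside 2061 of all 13857 genes, and 7 in hoz, beside 2030. DESeq2 called Nefh and Syt1 in wt (2 members, against 3.62% of all genes) and Gh, Nefh and Prl in hoz (3 members, against 3.72%). Limma voom called Nefh and Syt1 in wt (2 members, against 3.18% of all genes) and Nefh in hoz (1 member, against 2.31%). The authors' deposited table, which gives males over females, calls 2 members in wt (Syt1, log2 fold change 0.52, adjusted p = 0.00146, and Nefh, 0.39, adjusted p = 0.0203), where it calls 3.06% of genes. In hoz the authors' deposited table calls Nefh alone (0.87, adjusted p = 1.15e-09), where it calls 3.71% of genes. These log2 fold changes of the authors are smaller in size than edgeR's for the same genes and groups. Only calls and directions are therefore set side by side.

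The partners of Nefh in the filament overlapped between the sexes. The medium chain Nefm lay at 1.95 to 3.47 CPM in males and 1.63 to 2.76 CPM in females, and the light chain Nefl at 0.303 to 1.56 CPM in males and 0.264 to 0.839 CPM in females. Their log2 fold changes, females against males, were -0.19 (SE 0.273) and -0.86 (SE 0.574) in wt and -0.14 (SE 0.301) and -0.00 (SE 0.624) in hoz, none of them called. Per kilobase, Nefh had a mean level of 21.7 CPM, against 0.653 for Nefm and 0.186 for Nefl. Nefl and Nefm overlap each other on opposite strands, and their reads cannot be told apart if counting ignored strand. Each of hoz male 1, 2 and 3, hoz female 1, 2 and 3 and wt male 1 was needed for the hoz call: without 1 of them the adjusted p lay between 0.0509 and 0.102, with log2 fold changes of -1.52 to -1.82. In wt mice the value passed without wt female 3, at -1.04 with an adjusted p of 0.0130.

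Syt1, the calcium sensor of synaptic vesicle release, was also lower in females within each genotype. It was at 18.2, 10.4 and 10.4 CPM in wt males, 11.8, 11.1 and 9.29 in the hoz males, 8.40, 6.35 and 3.91 in the wt females and 9.25, 7.93 and 5.87 in the hoz females. Within each genotype every female lay below every male. The log2 fold change was -1.16 in wt (SE 0.287, adjusted p = 0.0616) and -0.41 in hoz (SE 0.294, adjusted p = 0.6004), and neither passed. Without wt female 1 the wt value passed, at an adjusted p of 0.0383. Libraries of the sexes did not overlap for 4 of the 28 members in wt, all lower in females (Syt1, Nefh, Slc17a7 and Rbfox3), where 18.8% of all genes tested had groups that did not overlap. In hoz this held for 5 of 28, with Syt1, Nefh and Cnp lower and Gh and Prl higher in females, where it held for 20.8% of all genes. For Gh it rests on 2 reads in hoz female 1 against 3 in the deeper hoz male 2.

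**Figure D2:**
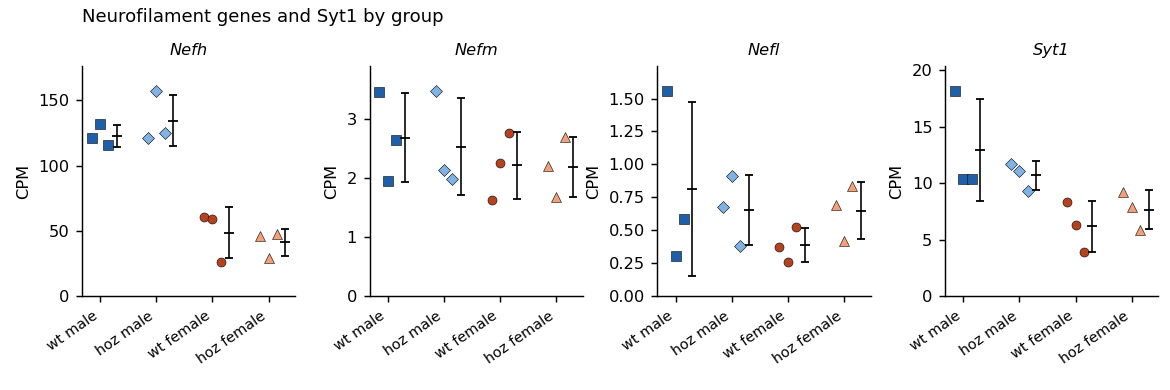
CPM of the neurofilament genes Nefh, Nefm and Nefl and of Syt1 by group; points are libraries, and the bar beside them is the mean ± SD of 3 libraries, on axes that start at 0. Nefh is at 115 to 157 CPM in males and 26.5 to 60.4 CPM in females, while Nefm and Nefl overlap between the sexes.

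Of the 8 myelin genes, 4 were highest in wt male 1 (Mog, Cnp, Olig1 and Olig2). Mobp, a structural protein of compact myelin (ENSMUSG00000032517, chromosome 9, 120149742 to 120181484, plus strand), was at 10.5, 13.01 and 3.23 CPM in wt males, 13.03, 5.39 and 1.88 in the hoz males, 1.25, 12.03 and 3.97 in the wt females and 3.71, 2.92 and 2.18 in the hoz females. Wt male 1, wt male 2, hoz male 1 and wt female 2 stood at 10 CPM or more, and the other 8 libraries at 5.39 CPM or less. Mag, the adhesion protein of the inner myelin face, was highest in the same 4 libraries (2.503, 2.22, 2.45 and 3.50 CPM) and reached 0.384 to 1.40 CPM elsewhere. Mog, on the outer face of the sheath, was at 0.908 to 1.17 CPM in the 4 and at 0.125 to 0.777 CPM elsewhere.

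The promoter of Mobp (GRCm38.p6, chr9:120149492-120149791, plus strand, from RefSeq) is printed for its repeats of the core that SOX factors, among them the oligodendrocyte regulator SOX10, recognise. Capitals mark ACAAAG on the reverse strand, which reads CTTTGT here, searched on both strands.
Mobp: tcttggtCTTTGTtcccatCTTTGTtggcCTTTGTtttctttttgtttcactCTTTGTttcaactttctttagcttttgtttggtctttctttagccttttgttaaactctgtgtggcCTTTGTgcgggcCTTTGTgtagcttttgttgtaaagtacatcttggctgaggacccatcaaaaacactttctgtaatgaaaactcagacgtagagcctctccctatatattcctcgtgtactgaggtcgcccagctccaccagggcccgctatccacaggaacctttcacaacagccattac
It held 6 matches, between 243 and 120 bases before the start site. The core was present in 18.7% of the 32851 promoters and in 8 of the 30 promoters of members (those of Cnp, Gad1, Mag, Mobp, Rbfox3, Rtn1 and Syt1), so neuron genes held it too.

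Against this contrast, Mbp and Cnp moved little. Mbp, the basic protein that compacts myelin, was at 102, 115 and 78.4 CPM in wt males, 102, 88.1 and 73.2 in the hoz males, 65.8, 101 and 71.5 in the wt females and 89.6, 77.4 and 78.7 in the hoz females. Its 4 highest libraries were the 4 named for Mobp, but the lowest library still held 65.8 CPM where Mobp was at 1.25 CPM. Cnp ranged from 18.0 to 29.0 CPM and overlaps Dnajc7 on the opposite strand. Olig1, a transcription factor of the oligodendrocyte lineage, was at 1.50 CPM in wt male 1 and at 0 in hoz female 2. Olig2, its partner, had 33 reads in all and did not pass the filter. Among 13 further oligodendrocyte genes, 10 were tested and none was called. Qdpr was at 47.7 to 57.5 CPM, Trf at 10.5 to 25.8 CPM, and Myrf, the regulator that switches on myelin genes, at 5.56 to 11.6 CPM. Among the precursor genes Pdgfra, also a fibroblast gene, was lowest in wt male 1 (45.6 CPM) and highest in hoz female 3 (119 CPM). Ptprz1 (1.39 to 4.84 CPM) was highest in wt male 1, Sox6 (3.97 to 5.75 CPM) in wt female 2 and Cspg4 (7.50 to 10.7 CPM) in wt female 3, and none was called.

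**Figure D3:**
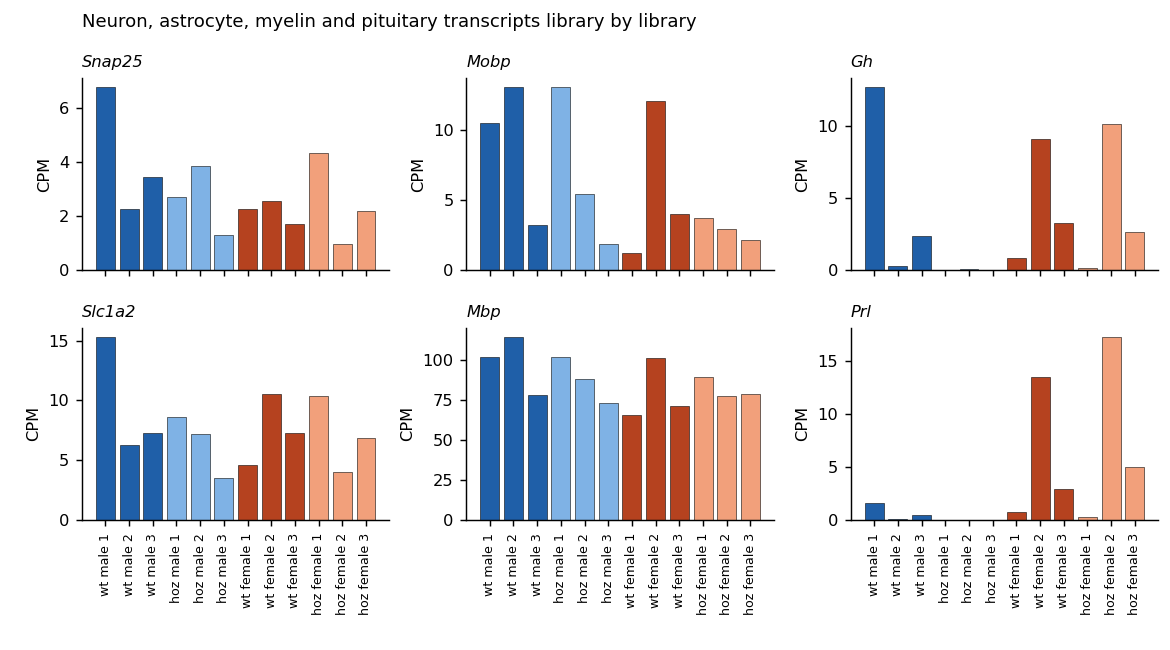
CPM of Snap25 (neurons), Slc1a2 (astrocytes), Mobp and Mbp (myelin) and Gh and Prl (pituitary) in each of the 12 libraries, as bars from 0 coloured by group. Snap25 and Slc1a2 are highest in wt male 1, Mobp is high in 4 libraries, and Gh and Prl are close to 0 in the 3 hoz males.

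Of the 6 astrocyte genes, 5 were highest in wt male 1. Gfap, the intermediate filament of astrocytes, was at 15.6, 4.47 and 2.29 CPM in wt males, 5.41, 3.01 and 4.16 in the hoz males, 2.76, 7.01 and 7.23 in the wt females and 5.29, 3.20 and 3.86 in the hoz females. Slc1a2, the main glutamate transporter of astrocytes, was at 15.3, 6.29 and 7.23 CPM in wt males, 8.63, 7.19 and 3.50 in the hoz males, 4.64, 10.5 and 7.27 in the wt females and 10.4, 4.04 and 6.88 in the hoz females. Apart from wt male 1, wt female 2 and hoz female 1 were the highest for Slc1a2. Slc1a3, the glutamate transporter shared with radial glia, ran from 3.76 CPM in hoz female 2 to 10.2 CPM in wt male 1. Slc6a11, an astrocyte GABA transporter and no member, was at 5.90 CPM in wt male 1 and at 0 to 1.06 CPM in the other 11 libraries.

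Aldoc, by contrast, was at 32.2 to 43.8 CPM throughout. Gja1, the gap junction protein connexin 43, was at 3.64, 5.69 and 7.42 CPM in wt females and at 3.40, 2.37 and 3.86 CPM in hoz females, with overlap. Its log2 fold change in females was -0.86 (SE 0.294, adjusted p = 0.587). S100b, a calcium binding protein, was at 0.338 to 1.26 CPM in the hoz libraries and 0.583 to 2.78 CPM in the wt libraries, with a log2 fold change over both sexes of -1.004 (SE 0.393, adjusted p = 0.858). It overlaps Dip2a on the opposite strand. The 12 further astrocyte genes were all tested and none was called. The most abundant, Clu (3413 to 3874 CPM), Apoe (1827 to 2735 CPM), Glul (524 to 644 CPM) and Atp1b2 (269 to 340.0 CPM), were far above the members and are expressed by other cells as well.

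Transcripts of Gh and Prl were present in libraries of 3 groups and at or near 0 in hoz males, where Pomc was read. Gh (ENSMUSG00000020713, chromosome 11, 106300271 to 106301865, minus strand) had 229, 8 and 61 reads in wt males, 0, 3 and 1 in the hoz males, 7, 138 and 105 in the wt females and 2, 73 and 16 in the hoz females. In CPM these are 12.7, 0.269 and 2.37, then 0, 0.0668 and 0.0213, then 0.877, 9.12 and 3.26, and last 0.126, 10.2 and 2.68. The hoz males included the 2 deepest libraries of the series, and their 4 reads of Gh were 0.0386 CPM over the group (exact 95% interval 0.0105 to 0.0988, Poisson). The other groups spread over more than an order of magnitude each: hoz female 1 had 2 reads of Gh, and hoz female 2 had 73 although it was less deeply sequenced.

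Prolactin was found in most libraries that held growth hormone, with fewer reads per read of Gh in wt males than in females. Prl (ENSMUSG00000021342, chromosome 13, 27057570 to 27065204, plus strand) had 28, 3 and 11 reads in wt males, 0, 0 and 0 in the hoz males, 6, 204 and 93 in the wt females and 5, 124 and 30 in the hoz females. In each sex the library highest in Gh by CPM, wt male 1 and hoz female 2, was also highest in Prl. For each read of Gh there were 0.122 to 0.375 reads of Prl in the 3 wt males, and 0.857 to 2.5 in the 6 females, without overlap. This ratio was not tested, and in some libraries it rests on few reads. Reads of Prl to Gh were 3 to 8 in wt male 2, 6 to 7 in wt female 1 and 5 to 2 in hoz female 1. Hoz male 2 and hoz male 3 had 3 and 1 reads of Gh and 0 of Prl. Over the hoz males the count of Prl was 0, where 3 reads of the group's total equal 0.0289 CPM. The exact 95% interval (Poisson) of that 0 reaches 0.0356 CPM. The pooled level was 5.48 CPM over the hoz females and 5.48 CPM over the wt females, 189-fold the 0.0289 CPM. Without hoz female 2 the pooled level of hoz females was 55.4-fold that value. Without wt female 2 that of wt females was 85.1-fold. These folds leave out the spread between libraries. Single libraries ran from 0.315 to 17.3 CPM in hoz females and from 0.752 to 13.5 CPM in wt females.

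The Prl promoter (GRCm38.p6, chr13:27057320-27057619, plus strand, from RefSeq) is shown because Pit-1, the transcription factor of the pituitary cells that make growth hormone and prolactin, recognises a short element in it. Capitals mark TATNCAT, searched on both strands, once as ATGAATA for the reverse strand and once as TATTCAT.
Prl: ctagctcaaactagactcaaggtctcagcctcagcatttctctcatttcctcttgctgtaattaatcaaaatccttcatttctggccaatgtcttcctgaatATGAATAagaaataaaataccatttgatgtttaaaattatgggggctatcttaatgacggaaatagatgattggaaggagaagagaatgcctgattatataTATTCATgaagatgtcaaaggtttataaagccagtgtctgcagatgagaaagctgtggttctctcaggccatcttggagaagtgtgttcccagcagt
The matches start 148 and 47 bases before the start site. The element was present in 8.84% of the 32851 promoters, and among the 30 promoters of members that of Prl was the only match. No promoter of Gh was available, so Gh was not searched.

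**Figure D4:**
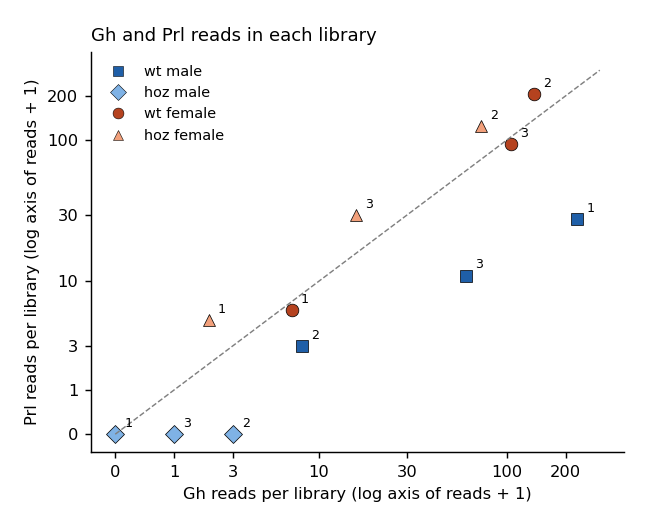
Reads of Prl against reads of Gh in each library, on log axes of reads + 1; symbols and colours give the group, digits the library within its group, and the dashed line marks equal reads. The 3 hoz males lie at 0 Prl reads, the wt males lie below the line, and the females lie close to it or above it.

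Pomc, the precursor of corticotropin and melanocyte stimulating hormone, was lower and differently spread, with 14, 9 and 9 reads in wt males, 7, 5 and 11 in the hoz males, 4, 38 and 19 in the wt females and 8, 59 and 0 in the hoz females. It was highest in hoz female 2 (8.21 CPM) and wt female 2 (2.51 CPM), the libraries that were also highest in Prl. It was not absent from hoz males, where it was at 0.111 to 0.592 CPM. Other pituitary genes were at or near 0: thyrotropin beta Tshb had 3 reads in all, the common alpha subunit Cga 1, the growth hormone releasing hormone receptor Ghrhr 2, and Fshb 0, which allows up to 0.0115 CPM over the 12 libraries. Pou1f1, which encodes Pit-1, had 0 to 5 reads per library. Lhb, luteinizing hormone beta, was the exception at 27.2 to 35.5 CPM, steady in all libraries and thus unlike Gh and Prl. Its end overlaps Ruvbl2, so part of its reads could belong to Ruvbl2 if counting ignored strand. The convertase Pcsk2 was at 42.8 to 76.5 CPM, and the granule proteins Chgb (0.627 to 3.50 CPM) and Chga (0.234 to 1.84 CPM) were low, with Chga highest in wt male 1.

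Fitted sex and genotype values of these hormones were large and poorly determined. In males the hoz against wt log2 fold change of Gh was -6.79 (SE 2.30, adjusted p = 1.0), and in hoz mice the female against male value of Prl was 10.27 (SE 3.17, adjusted p = 0.199). With a group at or near 0 reads these values depend on the prior count and are no bounds. In CPM, Gh and Prl were higher in all 3 hoz females than in all 3 hoz males. They were also lower in all 3 hoz males than in all 3 wt males, yet neither passed edgeR's test in any contrast. This order rests on few reads. Gh had 2 reads in hoz female 1 (95% counting interval 0.0152 to 0.455 CPM) and 3 in hoz male 2 (0.0138 to 0.195 CPM). Prl had 3 reads in wt male 2 (0.0208 to 0.295 CPM), and the 0 reads of hoz male 1 allow up to 0.312 CPM. These intervals overlap.

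Receptors of the pituitary ligands were steady. Prlr, the prolactin receptor and an epithelial gene of this tissue, was at 1155 to 1459 CPM, and Ghr, the growth hormone receptor, at 27.0 to 41.6 CPM. Igf1r was at 79.4 to 118 CPM. Among 10 genes of receptors and their feedback targets 6 were tested. At an unadjusted p under 0.05 by edgeR there were 3 in each sex contrast, beside 2061 of all 13857 genes in wt and 2030 in hoz. In each sex contrast 1 was called, where 2.63% of all genes tested were called in wt and 2.68% in hoz. This was Socs2, a feedback inhibitor of cytokine receptor signalling, at 10.6, 11.4 and 12.6 CPM in wt males, 10.7, 14.0 and 9.46 in the hoz males, 24.1, 25.2 and 27.0 in the wt females and 24.4, 19.2 and 18.0 in the hoz females. All females lay above all males, with log2 fold changes of 1.15 in wt (SE 0.140, adjusted p = 0.000254) and 0.87 in hoz (SE 0.147, adjusted p = 0.00369), by edgeR's quasi-likelihood test. Without wt male 1 and hoz female 1 the hoz value was 0.70 with an adjusted p of 0.0541. Cish, a relative with the same role, was at 14.2 to 22.7 CPM in males and 23.4 to 43.1 CPM in females and was not called (log2 fold change 0.81, adjusted p = 0.222 in wt, and 0.79, adjusted p = 0.254 in hoz). Hoz males and wt males stood at 11.4 ± 2.34 and 11.5 ± 1.04 CPM of Socs2 (SD, n = 3), with 4 and 298 reads of Gh. Of the reads in wt males, 229 were those of wt male 1. Among hoz females Socs2 was highest in hoz female 1, the library of that group with the fewest Gh and Prl reads. A relation of Socs2 to Gh or Prl was not tested.

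By genotype no member passed. In males 0 of 28 members were called (0.00722% of all genes tested were) and 2 had an unadjusted p under 0.05, Gh and Aldoc, beside 301 of all 13857 genes. In females 0 of 28 were called (0.0144% of all genes) and 2 had an unadjusted p under 0.05, Slc17a7 (log2 fold change 1.81, SE 0.665, adjusted p = 0.643) and Gja1, beside 940 of all genes. Over both sexes 0 were called (0.0144% of all genes) and 4 had an unadjusted p under 0.05, Gja1, S100b, Gh and Mag (log2 fold change -0.98, SE 0.445, adjusted p = 0.866), beside 781 of all genes. DESeq2, limma voom and the authors' deposited table, which has no contrast over both sexes, also called 0 members by genotype. Libraries of the genotypes did not overlap for 4 of 28 members in males (Rbfox3, Aldoc, Gh and Prl, all lower in hoz), against 6.65% of all genes, and for 2 in females (Syn1 higher and Mag lower in hoz), against 13.7% of all genes. The separation of Prl in males rests on 3 reads in wt male 2 against 0 in the hoz males.

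The neuron genes had fitted values of mostly opposite sign in the sexes. In males 1 of the 13 neuron members tested had a log2 fold change above 0, with a median of -0.27, and in females 10 of 13 had, with a median of 0.47. All genes tested had medians of 0.00 in both contrasts. The 13 further neuron genes lay the same way, with 1 of 13 above 0 and a median of -0.47 in males and 10 of 13 and 0.60 in females. The male and female contrasts share no library. The direct test of the difference, the interaction of sex and genotype, called 0 of 28 members, where 0.00722% of all genes were called, and DESeq2 and limma voom called 0. At an unadjusted p under 0.05 there were 4 members: Gad1 (log2 difference 1.89, SE 0.818), Syn1 (1.93, SE 0.753), Rbfox3 (1.61, SE 0.716) and Aldoc, each with an adjusted p of 1.0, beside 505 of all 13857 genes. The libraries with the highest neuron levels, wt male 1 and hoz female 1, are a wt male and a hoz female. Leaving out libraries that are highest in these same genes lowers the wt male and hoz female levels by construction. The medians without them are therefore a description and no test. Without both, 6 of 13 neuron members were above 0 in males, with a median of -0.01, 7 of 13 were in females, with a median of 0.12, and the median of the interaction was 0.18 in place of 0.85. The further neuron genes then had medians of -0.13 in males and 0.22 in females, where 9 of 13 were above 0, and 11 of 13 were above 0 for the interaction (median 0.29). Without wt male 1 alone the male median of the members was 0.00, and without hoz female 1 alone the female median was 0.12. Other single libraries moved the male median from -0.68 without hoz male 2 to -0.11 without hoz male 3, and it was -0.66 without wt male 2. The female median was 0.72 without hoz female 2. That of the further neuron genes was 0.22 without hoz female 1, 0.25 without hoz female 3 and 0.35 without wt female 3. In a fit of the female groups alone 10 members were tested and their median was 0.23.

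Of 6 myelin members tested, 0 were above 0 in males (median -0.66) and 2 in females (median -0.16). Of 6 astrocyte members, 0 were above 0 in males (median -0.46) and 1 in females (median -0.32). Without wt male 1 the male medians were -0.31 for myelin and -0.04 for astrocytes. In females the myelin median was 0.05 without wt female 2 and -0.72 without hoz female 1, and the astrocyte median was -0.18 without wt female 2 and -0.65 without hoz female 1. In males Mobp stood at -0.56 (SE 0.830) and Gfap at -0.84 (SE 0.644), both with an adjusted p of 1.0.

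**Figure D5:**
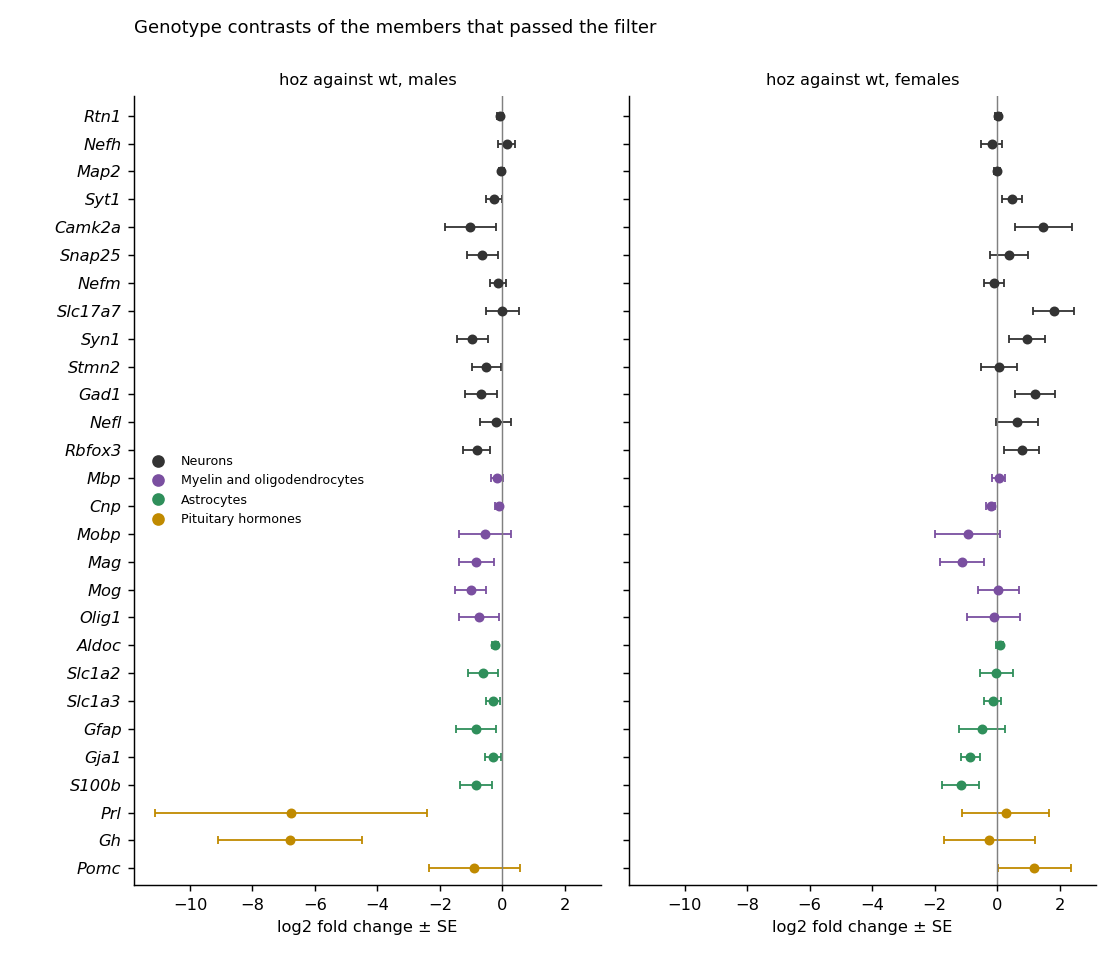
Log2 fold change of hoz against wt with its SE, in males (left) and in females (right), for the 28 members that passed the filter, coloured by class. None passed the test; Gh and Prl in males have SE of 2.30 and 4.35, and most neuron genes lie left of 0 in males and right of 0 in females.

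Snap25 and Slc1a2 varied together over the 12 libraries. Taking 1 gene per class, 3 pairs were compared on log2 CPM, with permutation p-values adjusted over the 3 by the Benjamini-Hochberg method. Snap25 and Slc1a2 had a Pearson r of 0.84 (adjusted permutation p = 0.00255) and a Spearman rho of 0.73 (adjusted permutation p = 0.0264), and r was 0.68 without the 2 libraries farthest from the median. Mbp and Slc1a2 had an r of 0.62 (adjusted permutation p = 0.0483) and a rho of 0.55 (0.0735), and r was 0.76 without 2 libraries. Snap25 and Mbp had an r of 0.47 (adjusted permutation p = 0.123) and a rho of 0.54 (0.0735), and r was 0.35 without 2 libraries. The differences between these coefficients were not tested. Other members of the classes followed less closely: the r with Slc1a2 was -0.15 for Rtn1, 0.13 for Nefh and 0.29 for Syt1, and that with Snap25 was 0.27 for S100b and 0.31 for Gja1. All 3 genes share the 12 libraries and their depth. Without wt male 1 and hoz female 1 the r of Snap25 with Slc1a2 was 0.69 (adjusted permutation p = 0.0758) and that of Mbp with Slc1a2 was 0.57 (adjusted permutation p = 0.130), so both calls were lost. That of Mbp with Slc1a2 was also lost without any 1 of 10 libraries, with adjusted permutation p-values of 0.0606 to 0.112, and it was kept without wt male 2 or without wt female 3. Centred on the group means, Mbp and Slc1a2 had an r of 0.62 (adjusted permutation p = 0.0501).

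Genes outside the list that ran most closely with each class gene were picked by Pearson r of log2 CPM over the 12 libraries. With Snap25 these were Sncb (r 0.95), Grin2b (0.93), Rab3c (0.93), Bsn (0.91) and Scn2b (0.89), each highest in wt male 1. With Slc1a2 they were Pcsk1n (0.90), Tppp (0.90), Syt7 (0.89), Rap1gap (0.89) and Lrrc4b (0.87), also highest in wt male 1. With Mbp they were Ssbp4 (0.91), Hras (0.90), Ccne2 (0.89), Kif5a (0.87) and Homer3 (0.87), of which Kif5a spread the widest, from 1.56 to 20.1 CPM. Snap25 and Slc1a2 are themselves highest in wt male 1, so the peak shared with them follows largely from the picking. These are descriptions of 12 points each. Gh, in turn, had an r of 0.90 with Prl, -0.02 with Snap25, -0.08 with Mbp and 0.25 with Slc1a2. Wt male 1 and wt female 2 were among the highest libraries for Gh and for Mobp, Mag and Slc1a2 alike. Other libraries went the other way. Hoz female 2, at 10.2 CPM of Gh, had 2.92 CPM of Mobp, 0.696 CPM of Mag and 4.04 CPM of Slc1a2. Wt male 2 and hoz male 1, at 13.01 and 13.03 CPM of Mobp, had 8 and 0 reads of Gh.

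Markers of the other cells of the tissue were followed beside the members. Summed over each list, ependyma was at 284 to 361 CPM, fibroblasts and meninges at 7406 to 8717 CPM, macrophages and microglia at 52.5 to 108 CPM and erythroid genes at 124 to 248 CPM. Few genes carried the first sums: Foxj1 (187 to 261 CPM) for ependyma, and Igf2 (4547 to 5570), Igfbp2 (1659 to 2260) and Ptgds (636 to 858) for fibroblasts. Some low genes of these lists varied more, such as Ccdc153 (0.289 to 4.19 CPM) and Col3a1 (1.53 to 11.1 CPM). The sums therefore say little about the low genes. Endothelium ranged from 74.6 CPM in wt male 2 to 217 CPM in wt female 3, and mural cells from 55.9 CPM in wt male 2 to 153 CPM in hoz male 2. Male libraries ranged from 74.6 to 214 CPM in endothelium and female libraries from 106 to 217 CPM. No gene of these lists was called in the genotype contrasts of males or females or in the sex contrasts of wt or hoz. In the genotype contrast of females the log2 fold change was above 0 for 0 of 10 endothelium genes (median -0.34), 0 of 9 mural genes (-0.50), 1 of 12 macrophage genes (-0.42) and 1 of 8 ependyma genes (-0.43), beside the neuron median of 0.47. In males it was above 0 for 7 of 10, 7 of 9, 7 of 12 and 1 of 8. In the sex contrast of wt it was above 0 for 10 of 10 endothelium genes (median 0.46) and 6 of 8 ependyma genes (median 0.42). An unadjusted p under 0.05 by edgeR was reached by 0 endothelium genes and 5 ependyma genes, beside 2061 of all 13857 genes. Their part in the member values was not tested.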

How the data were processed

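RNA of 12 lateral choroid plexus libraries was sequenced, 3 in each of 4 groups taken from the labels. Per the labels' protocols, mRNA was selected on oligo dT beads, prepared with a KAPA RNA HyperPrep kit and read as paired 100 base reads on an Illumina HiSeq. The build is mm10, and STAR 2.5, edgeR 3.16.5, HTSeq 0.6.1, STAR-Fusion, CASAVA, DESeq2 and TopHat are listed, per the submitters' processing notes, which tie none to a step. The deposited table holds raw read counts per gene, made by the authors, per the file headers. The FPKM values the authors deposited equal those counts scaled by gene length and library total (relative differences up to 4.97e-12, 218198 values). The deposited log2 fold change columns and the adjusted p-value columns are the authors' own tests. The authors' deposited group means were not used.

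Counts were tested with edgeR 4.0.16 (quasi-likelihood, robust, TMM scaling, filterByExpr, which kept 13857 of 35275 genes) in R 4.3.3 on 4 group means with 8 residual degrees of freedom. P-values are two-sided and adjusted by Benjamini-Hochberg over 13857 genes, with calls at an adjusted p under 0.05. DESeq2 1.42.0 and limma 3.58.1 (voom) were alternatives. The test was checked on simulated data. Log2 CPM for correlations used a prior count of 2, and p-values came from 100000 resamples.

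The members and further lists were chosen with earlier results of these data known. All members are named, with list genes that were called and the 4 most abundant of each list, except some that are not reported here. Other genes (Slc17a6, Calb2, Cldn11, Slc6a11, Cish, Tshb, Cga, Ghrhr, Fshb, Pou1f1, Ccdc153, Col3a1) were chosen after their values were seen. Promoters of 22 members were found in a RefSeq table of GRCm38.p6, and those of Gh, Nefh, Snap25 and Stmn2 were among the ones not found. Library numbers give order only and pair nothing.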

Additional observations from a re-analysis of the deposited data

How the results depend on the processing

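The sex difference of Nefh in hoz kept its direction under every alternative run, but its call did not. With wt male 1 and hoz female 1 left out together, 0 members were called there, and so it was with wt male 1, wt female 2 and hoz female 2 left out, a choice made after the data were seen. Over fits without 1 library each, 0 to 1 members were called in the wt sex contrast and 0 to 1 in the hoz one. DESeq2 called 2 members in wt and 3 in hoz, limma voom 2 in wt. By genotype 0 members were called in every fit run.

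Counts over all genes moved more. In the order males, females, both sexes and interaction they were 1, 2, 2 and 1 in the fit of the report, 4, 6, 13 and 3 with DESeq2, and 2, 6, 5 and 2 without the filter. The interaction count was 0 with RLE scaling and with limma voom. Without wt male 1 and hoz female 1 it was 0, females had 1, and the sex contrasts had 143 in wt and 207 in hoz in place of 365 and 371. Without the 3 libraries highest in Gh, females had 1, both sexes 1, the interaction 0, and the sex contrasts 82 and 151. Fits of 2 groups alone called 39 genes in females and 211 in the wt sex contrast. Fits without 1 library each called 1 to 8 in males, 1 to 5 in females, 1 to 9 over both sexes, 0 to 7 for the interaction, 171 to 543 for sex in wt and 200 to 478 for sex in hoz. The causes were not tested.

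The correlation of Mbp with Slc1a2 was 0.624 (adjusted permutation p = 0.0501) centred on group means. Without wt male 1 and hoz female 1 it was 0.568 (0.130), and that of Snap25 with Slc1a2 was 0.694 (0.0758). Without 1 library each, r ranged from 0.754 to 0.875 for Snap25 with Slc1a2, 0.559 to 0.786 for Mbp with Slc1a2 and 0.371 to 0.601 for Snap25 with Mbp. No paired analysis was possible because the library numbers follow the order of listing and link no libraries of different groups. Depth limits the low members: 3 reads equal 0.0639 CPM in the deepest library and 0.503 CPM in the shallowest.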

Other observations

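Neuron genes and hormones were uneven in the libraries highest in Prl and Pomc. Wt female 2 and hoz female 2 had 2.58 and 0.974 CPM of Snap25, and hoz female 1, high in Snap25 and Camk2a, had 2 reads of Gh and 5 of Prl. Glial genes were high in wt female 2, with 3.50 CPM of Mag, the highest of the 12 libraries, 12.03 CPM of Mobp and 10.5 CPM of Slc1a2, whereas hoz female 2 had 0.696 CPM of Mag and 4.04 CPM of Slc1a2. Wt male 1 was high in Snap25, Gfap, Slc17a6 and Gh at once.

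Nnat, neuronatin, which ependyma and neuroendocrine cells are known to express, was at 19.0 CPM in wt female 2 and 9.13 CPM in wt female 3, and at 1.67 to 7.22 CPM in the other 10 libraries. It was singled out after its values were seen, and no contrast called it.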
